A study of Rattus norvegicus with 88 samples.

Results

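miR-192 and miR-194 are microRNAs (miRNAs) of liver and gut epithelium, and the array names rno-miR-192 and rno-miR-194 picked out these 2 of the 677 miRNAs on the array. The rule was their names, with no cut on a measured value, although earlier results of these data were known when the pair was chosen. Both were detected on all 88 arrays, and both are among the 314 miRNAs that were detected on at least 1 array. The arrays were Agilent one-colour rat miRNA microarrays of whole liver from untreated F344 (Fischer) rats, with 1 animal on each. The study asked how liver miRNAs differ with sex and over the life span, and it took animals at 9 ages, namely at 2, 5, 6 and 8 weeks, at 15 and 21 weeks, and at 52, 78 and 104 weeks. Each age and sex had 5 animals except males of 5 weeks and males of 104 weeks with 4, and the number of arrays limits the precision of every group value. All animals were of a single inbred strain, no group was genetically altered or treated, and whole liver holds hepatocytes together with bile duct, endothelial, stellate and blood cells. In such bulk samples fewer cells of a type and less RNA per cell cannot be told apart.

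A miRNA is cut from a hairpin in a longer transcript, and its seed, the bases 2 to 8 from the 5′ end, pairs with target messages that are then repressed. miR-192 and miR-194 are made from a shared transcript, and hepatocyte nuclear factors are known to drive them in liver and intestine. miR-192 and its relative miR-215 are known for restraining the cell cycle downstream of p53, and miR-194 is known as a marker of hepatic epithelial cells. The strand of the hairpin that is kept less often is written with a star (miR-192*, miR-194*), and miR-122 is the most characteristic miRNA of the hepatocyte.

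The mature sequences are shown because they define what the probes could and could not separate. They are from RefSeq (assembly GRCr8), are written 5′ to 3′, and carry the seed in capitals.
miR-192: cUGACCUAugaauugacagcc
miR-215: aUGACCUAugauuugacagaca
miR-194: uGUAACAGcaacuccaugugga
miR-192*: cUGCCAGUuccauaggucacag
miR-194*: cCAGUGGGgcugcuguuaucu
miR-192 and miR-215 had the same seed and were identical at 18 of the 21 bases aligned from the 5′ end, with the differences C1A, A12U and C20A (the base of miR-192, the position from its 5′ end, the base of miR-215). Of the 693 mature miRNA names in the RefSeq table, 2 carried the seed of miR-192 (miR-192 and miR-215), and miR-194 alone carried its own seed. The seeds of miR-192 and miR-194 were identical at 2 of 7 positions.

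The hairpins are shown because the 2 miRNAs come from a shared locus and miR-194 also from another. The mature strands listed by RefSeq are in capitals.
Mir192, plus strand, chr1:212994209-212994318: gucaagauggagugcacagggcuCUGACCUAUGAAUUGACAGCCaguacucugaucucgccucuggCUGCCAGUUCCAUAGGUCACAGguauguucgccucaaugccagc
Mir194-2, plus strand, chr1:212994024-212994108: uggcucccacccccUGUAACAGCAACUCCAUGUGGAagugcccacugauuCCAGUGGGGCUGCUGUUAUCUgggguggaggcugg
Mir194-1, plus strand, chr13:99382716-99382798: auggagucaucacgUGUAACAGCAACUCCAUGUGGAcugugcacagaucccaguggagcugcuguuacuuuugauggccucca
On chromosome 1 of GRCr8, 100 bases separate Mir194-2 from Mir192, and on chromosome 13, 191 bases separate Mir194-1 from Mir215. Mature miR-194 is the same from both of its hairpins, so its signal cannot be divided between the chromosomes. miR-215 was detected on 1 of the 88 arrays, whereas the star strand miR-192* was detected on 84 and miR-194* on 70.

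Each miRNA was read by 2 probes of 10 spots. All 1760 spots of miR-192 and all 1760 spots of miR-194 were well above background, and none was saturated. The software's own error of the total gene signal (the sum over the probes of a miRNA) had a median of 7.90% for miR-192 and 7.99% for miR-194. Values are given as normalized intensity, the total gene signal of an array divided by that array's 75th percentile over the 314 expressed miRNAs. This is the scaling of the original processing. The 75th percentile itself ran from 28.1 to 289 across arrays, and 134 to 255 miRNAs were detected on an array. No pair of arrays was identical. Because different probes respond differently, the level of miR-192 is never set against that of miR-194 below.

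With this scaling both miRNAs were at their lowest group mean at 2 weeks of age in each sex. Under quantile normalization and without scaling the difference from adults turned in part. The normalized intensity of miR-192 in the 5 females of 2 weeks was 25.05, 25.5, 28.1, 28.2 and 30.95. In the 5 males of that age it was 17.6, 18.1, 18.98, 19.96 and 22.8. Every male was below every female.
For miR-194 the 5 females of 2 weeks had 6.91, 8.02, 8.05, 8.20 and 9.20. The 5 males of that age had 5.52, 5.98, 6.07, 6.19 and 6.37. The sexes again did not overlap.

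At 5 and 6 weeks the levels were, by group mean, between those of 2 weeks and those of 8 weeks. miR-192 measured 32.99, 38.9, 39.9, 41.3 and 44.3 in females of 5 weeks. The males of 5 weeks gave 30.4, 37.8, 44.8 and 48.7. These overlapped between the sexes, and each was above every 2-week animal of the same sex.
At 6 weeks miR-192 was 36.6, 37.5, 37.9, 45.8 and 52.3 in females. It was 31.8, 41.9, 42.8, 46.5 and 47.1 in males. The ranges at 5 and 6 weeks overlapped in both sexes.
miR-194 was 9.75, 10.3, 11.2, 11.3 and 12.2 in females of 5 weeks. It was 9.09, 9.79, 9.80 and 10.1 in males of 5 weeks. The male values were close together and lay within or just below the female range.
At 6 weeks miR-194 was 9.02, 11.4, 11.8, 12.3 and 13.2 in females. In males it was 9.95, 11.4, 12.1, 12.5 and 14.5. One female of 6 weeks was at 9.02, below the highest female of 2 weeks (9.20).

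From 8 to 21 weeks both miRNAs reached or neared their highest group means. miR-192 in females was 56.3, 60.8, 61.5, 67.03 and 68.7 at 8 weeks. The 15-week values were 47.5, 58.7, 62.8, 65.3 and 70.2, and the 21-week values were 52.9, 64.6, 70.3, 70.8 and 73.3. The 3 ages overlapped in females.
In males miR-192 was 50.9, 52.3, 52.6, 55.9 and 56.4 at 8 weeks. The 15-week values were 63.5, 66.7, 72.8, 75.99 and 78.5, and the 21-week values were 56.7, 61.2, 64.4, 72.2 and 76.00. Every male of 15 weeks was above every male of 8 weeks.
miR-194 in females was 12.2, 15.8, 16.3, 16.7 and 17.2 at 8 weeks. The 15-week values were 15.2, 16.2, 16.99, 17.1 and 17.3, and the 21-week values were 16.1, 16.2, 16.5, 16.8 and 20.1. The lowest of these, 12.2 at 8 weeks, stood apart from the other 4 females of its age.
In males miR-194 was 12.01, 14.6, 14.6, 14.6 and 17.7 at 8 weeks. The 15-week values were 14.2, 15.4, 15.7, 16.1 and 17.1, and the 21-week values were 16.3, 16.8, 16.9, 17.5 and 19.5. The other 4 males of 8 weeks were above every male of 6 weeks, the lowest 8-week male (12.0) being the exception.

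**Figure D1:**
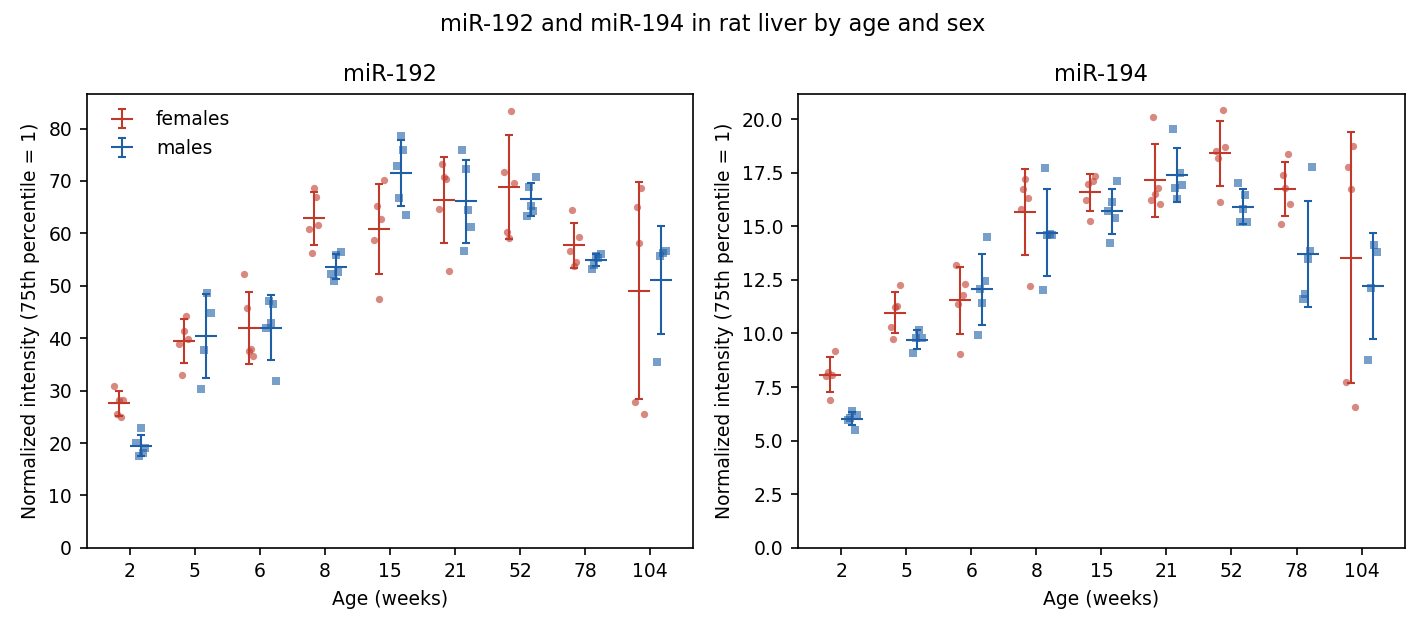
Normalized intensity (75th percentile of the expressed miRNAs = 1, linear axis from 0) of miR-192 and miR-194 by age in weeks, equally spaced. Points are single animals, and bars are the mean and SD of 4 or 5 females (red circles) or males (blue squares). With this scaling the lowest means of both miRNAs are at 2 weeks, and at 104 weeks 2 females and 1 male lie below the others of their sex.

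In the 52-week animals miR-192 was 59.05, 60.3, 69.6, 71.7 and 83.4 in females. It was 63.3, 64.3, 65.2, 68.9 and 70.7 in males. The female value of 83.4 was the highest of miR-192 on any array.
At 78 weeks miR-192 was 53.7, 54.6, 56.6, 59.3 and 64.4 in females. It was 53.2, 54.05, 55.4, 55.8 and 55.99 in males. Every 78-week male was below every 52-week male.
miR-194 at 52 weeks was 16.2, 18.2, 18.5, 18.7 and 20.4 in females and 15.2, 15.2, 15.8, 16.4 and 17.00 in males. At 78 weeks it was 15.1, 16.03, 16.8, 17.4 and 18.4 in females and 11.6, 11.8, 13.5, 13.8 and 17.8 in males. The female and male ranges overlapped at both ages, and the 52-week female value of 20.4 was the highest of miR-194 on any array.

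At 104 weeks a few animals were well below the others of their sex. miR-192 was 25.6, 27.9, 58.2, 65.1 and 68.7 in the 5 females. It was 35.5, 55.8, 56.3 and 56.7 in the 4 males. In each sex a low value or values lay apart from the rest.
miR-194 was 6.59, 7.76, 16.7, 17.8 and 18.8 in the same females. It was 8.75, 12.1, 13.8 and 14.1 in the same males. The 2 lowest females (animals 1 and 8) and the lowest male (animal 2) were the same animals for both miRNAs. The coefficient of variation of the 104-week females was 42.3% for miR-192 and 43.3% for miR-194. In the females of the other ages it was 7.47% to 16.3% for miR-192 and 5.17% to 13.5% for miR-194.

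Between 2 weeks and adult age (5 to 21 weeks) both miRNAs were higher in adults of both sexes with this scaling, although the direction turned under quantile normalization for miR-192 in females and miR-194 in males, and with no scaling for both in females. Females of 2 weeks had a mean miR-192 of 27.6 ± 2.39 (SD, n = 5). Males of 2 weeks had 19.5 ± 2.07 (SD, n = 5). In limma, with the p-values Benjamini-Hochberg adjusted over the 314 miRNAs, miR-192 in adult females was 1.92-fold (95% confidence interval 1.47 to 2.50, adjusted p = 3.9e-05) of its 2-week level. In males the change was 2.76-fold (95% confidence interval 2.21 to 3.44, adjusted p = 5.9e-11). For miR-194 the change was 1.75-fold (95% confidence interval 1.36 to 2.24, adjusted p = 0.00014) in females and 2.29-fold (95% confidence interval 1.88 to 2.79, adjusted p = 7.2e-10) in males. Under the same rule (adjusted p under 0.05 and at least 1.5-fold), 39.8% of all 314 miRNAs were called in females, 22.9% as higher in adults, and 49.7% were called in males, 29.9% as higher, so such a call was common. The median change of all 314 was 0.13 on the log2 scale in each sex.

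These changes depended on the reference against which an array was scaled. On the log2 scale the change of miR-192 was 0.94 in females and 1.46 in males as reported. With the 75th percentile taken over only the 103 miRNAs detected on all arrays, it was 0.29 (adjusted p = 0.025) and 0.35 (adjusted p = 0.0023), both under 1.5-fold. For miR-194 the corresponding values were 0.15 (adjusted p = 0.32) and 0.079 (adjusted p = 0.65). Before any scaling, the median total gene signal of miR-192 was 2717 in 2-week females and 3651 in adult females, and 2421 and 2704 in males. That of miR-194 was 889 and 902 in females, and 737 and 617 in males. The ages overlapped widely in each case, and the unscaled mean log2 change in females was -0.12 for miR-192 and -0.25 for miR-194, against 0.37 and 0.10 in males. The median 75th percentile was 101 in 2-week females against 57.0 in adult females, and 133 in 2-week males against 46.9 in adult males. More miRNAs were detected at 2 weeks (medians of 218 in females and 235 in males) than in adults (178 and 163), and the part of this in the result was not tested.

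Relative to the median of the 103 miRNAs detected everywhere, a difference that array-wide scaling leaves as it is, the adult values of miR-192 were higher by 0.42 in females and 0.48 in males. Those of miR-194 were higher by 0.29 and 0.21. Under quantile normalization, which acts on ranks, the same differences had the opposite sign for both (miR-192 -0.10 and -0.25, miR-194 -0.064 and -0.37), and with normexp background correction that of miR-194 in males did (-0.0022). With the scaling of the study, 22 of the 103 in females and 17 in males rose by as much as miR-192 or more, itself included. For miR-194 these were 31 and 36.

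**Figure D2:**
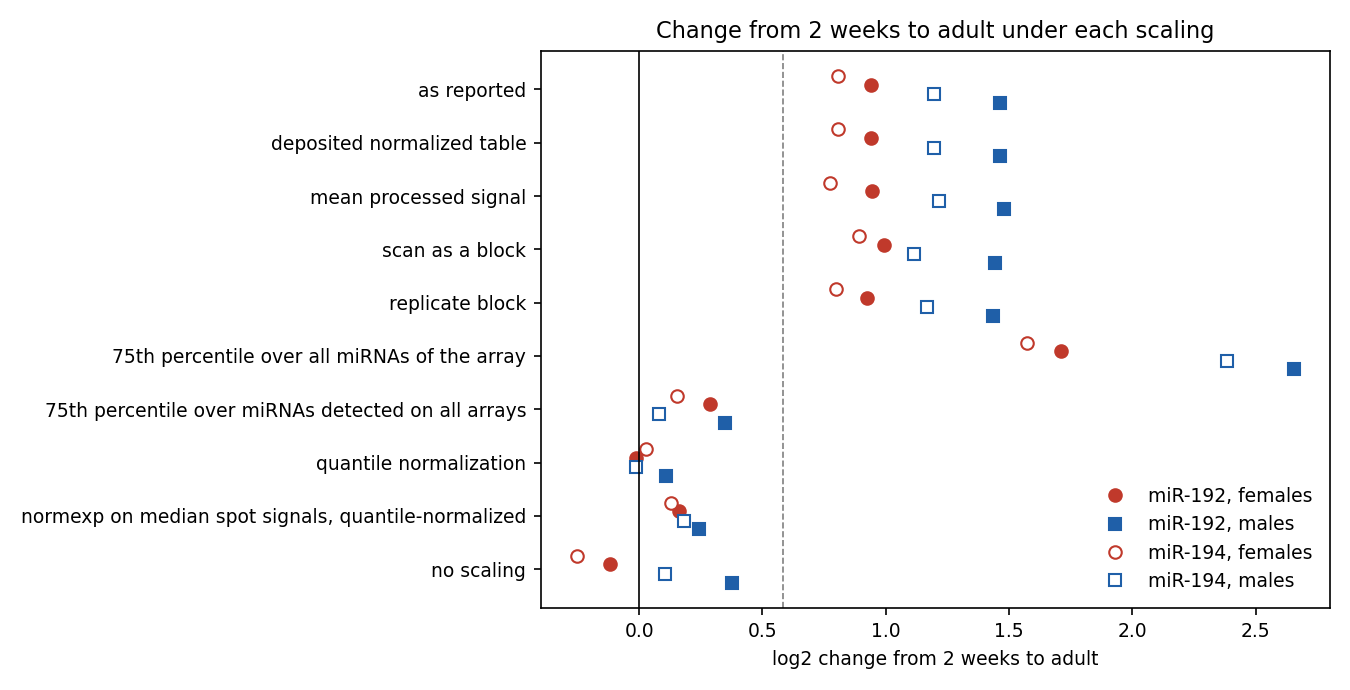
The log2 change from 2 weeks to adult (5 to 21 weeks) of miR-192 (filled) and miR-194 (open) in females (red circles) and males (blue squares) under 10 ways of treating the values, with the dashed line at 1.5-fold and the solid line at no change. The values lie from 0.77 to 1.48 in the first 5 rows and from 1.57 to 2.66 in the sixth, and lie between -0.25 and 0.37 in the last 4, where the direction turns for quantile normalization in miR-192 of females and miR-194 of males and for no scaling in both miRNAs of females.

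The 2 probes of each miRNA changed alike. From 2 weeks to adult, the probes of miR-192 differed by 1.06 and 0.90 in females and by 1.52 and 1.44 in males on the log2 scale. Those of miR-194 differed by 0.80 and 0.82 in females and by 1.20 and 1.16 in males. Within the separate scans (groups of arrays parted by more than 8 hours in scan time) that held both ages, the change of miR-192 was 0.67 to 1.13 in females and 1.41 to 1.56 in males. For miR-194 it was 0.58 to 1.05 in females and 1.07 to 1.15 in males, with as few as 1 array of 2 weeks in a scan.

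With the scaling of the study, markers of other cells moved over the same interval, and the lists are given under that scaling only. Of all 314 miRNAs, 22.9% in females and 29.9% in males were called higher in adults. Under the same rule, 2 of 2 erythroid miRNAs and 4 of the 5 measured leukocyte miRNAs were higher in adult females, and 2 of 2 and 5 of 5 in adult males. The summed normalized intensity of the leukocyte list ran from 6.45 to 8.26 in 2-week females and from 9.25 to 19.8 in adult females. In males it ran from 5.00 to 8.16 and from 11.6 to 18.6. No member of these lists that was on the array went undetected throughout. Of the remaining lists, 1 of 2 endothelial and 1 of 5 stellate and smooth muscle miRNAs were higher in adult males, 1 of 5 skeletal muscle miRNAs was higher in adult females, and 1 of 3 pancreatic miRNAs was lower in each sex. Of the list of intestinal and shared epithelium, 2 of 6 were lower in adult females and none of 6 passed in males. In the hepatocyte list 6 of 7 were higher in each sex, but the list holds miR-192, miR-194 and their star strands, so it is no separate support. Its log2 medians were 0.94 in females, which is the value of miR-192 itself, and 1.26 in males. The median was 0.13 over all miRNAs, but 0.52 in females and 0.99 in males over the 103 detected on all arrays. With the percentile over those 103, the change of miR-122 went from 0.61 to -0.045 in females and from 1.19 to 0.071 in males. The part of these markers in the result was not tested.

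In the F test over the 9 ages both miRNAs passed in each sex (adjusted p = 1.2e-07 and 8.4e-07 for miR-192 and miR-194 in females, 6.0e-16 and 5.0e-14 in males), as did 61.8% of all miRNAs in females and 56.1% in males. Of the 36 contrasts between ages, 15 in females and 14 in males were called for miR-192, and 11 and 12 for miR-194. At least 1 contrast was called for 57.3% of all miRNAs in females and 54.1% in males. Contrasts with 2 weeks made up 7 and 8 of the calls for miR-192 and 6 and 8 of those for miR-194. In females 10 contrasts were called for both miRNAs, and in males 11. These counts shared the dependence on scaling: with the percentile over the 103 miRNAs they were 0 and 1 for miR-192, and 0 and 0 for miR-194.

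The contrasts called without 2 weeks set 5 or 6 weeks against later ages, except that of 52 and 104 weeks for miR-192 in females. The largest of these differences started from 5 weeks. For miR-192 in males, the log2 change from 5 weeks was 0.84 (SE 0.12, adjusted p = 1.7e-06) at 15 weeks. In females it was 0.80 (SE 0.18, adjusted p = 0.00085) at 52 weeks. For miR-194 it was 0.84 (SE 0.11, adjusted p = 6.7e-07) at 21 weeks in males and 0.75 (SE 0.17, adjusted p = 0.0013) at 52 weeks in females. As counted above, the percentile over the 103 miRNAs left a single contrast called among both miRNAs and sexes.

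**Figure D3:**
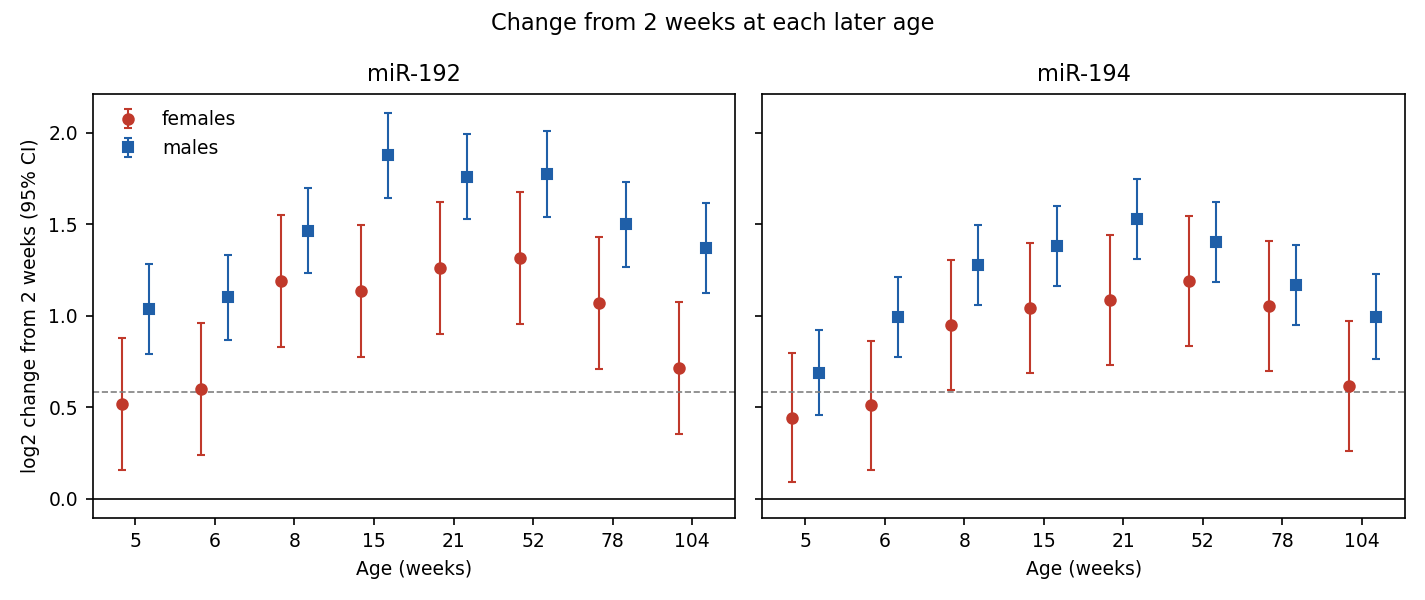
The log2 change of miR-192 and miR-194 from 2 weeks at each later age in weeks, with 95% confidence intervals from limma, in females (red circles) and males (blue squares). The dashed line marks 1.5-fold. With the scaling of the study every interval is above 0, with changes from 0.44 (miR-194, females of 5 weeks) to 1.88 (miR-192, males of 15 weeks), while under quantile normalization or no scaling the combined adult change turned in part as described beside the plot of scalings.

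In the order of the group means, most neighbouring ages were not called as different. Sorting by the same means keeps these steps small, so the uncalled steps do not show a lack of change over time. For miR-192 in females, the contrast of 6 and 8 weeks was called (log2 0.59, limma adjusted p = 0.023), although these ages are not neighbours in the order. For miR-192 in males the order from low to high was 2, 5, 6, 104, 8, 78, 21, 52 and 15 weeks, and of the 8 steps only that from 2 to 5 weeks was called (log2 step 1.04, adjusted p = 3.0e-09). In females the order was 2, 5, 6, 104, 78, 15, 8, 21 and 52 weeks, with no step called, and the step from 2 to 5 weeks was 0.52 (SE 0.18, adjusted p = 0.018), under 1.5-fold. For miR-194 in males the order was 2, 5, 6, 104, 78, 8, 15, 52 and 21 weeks, with only the step from 2 to 5 weeks called (0.69, adjusted p = 3.0e-06). In females it was 2, 5, 6, 104, 8, 15, 78, 21 and 52 weeks, with no step called.

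The question of ageing was addressed by adult (5 to 21 weeks) against old (52 to 104 weeks). Neither miRNA was called. For miR-192 the log2 difference was 0.091 (SE 0.13, adjusted p = 0.80) in females and 0.096 (SE 0.11, adjusted p = 0.83) in males. For miR-194 it was 0.15 (SE 0.12, adjusted p = 0.50) in females and 0.0087 (SE 0.10, adjusted p = 1) in males. The 95% confidence intervals were -0.16 to 0.34 and -0.12 to 0.31 for miR-192 and -0.09 to 0.39 and -0.19 to 0.20 for miR-194. Of all miRNAs 4.46% were called in females and 5.1% in males. Without the 104-week females 1 and 8, chosen after their values were seen, the female differences were 0.26 (adjusted p = 0.079) and 0.32 (adjusted p = 0.0078), still under 1.5-fold. Each of the 4 signs turned under at least 1 of the alternatives tried.

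Within old age, 104 weeks was compared with 52 weeks. In females the mean of miR-192 was 68.8 ± 9.87 (SD, n = 5) at 52 weeks. At 104 weeks it was 49.1 ± 20.8 (SD, n = 5). The log2 difference of -0.60 (SE 0.18, adjusted p = 0.038) was just past 1.5-fold and was called, as were 4.14% of all miRNAs, 2.55% in the same direction. The call was lost with the percentile over the 103 miRNAs (-0.37), quantile normalization (-0.21), no scaling (-0.70), normexp (-0.34) and a floor set before scaling (-0.60, adjusted p = 0.063). With the 75th percentile over all miRNAs of the array the sign turned (0.062). For miR-194 in females the mean went from 18.4 ± 1.53 (SD, n = 5) to 13.5 ± 5.86 (SD, n = 5), and the difference of -0.57 (SE 0.17, adjusted p = 0.042) was under 1.5-fold. It too turned under that scaling (0.088). In males the differences were -0.41 for both (adjusted p = 0.054 for miR-192 and 0.039 for miR-194), under 1.5-fold, and 1.91% of all miRNAs were called, 0.637% as lower. Their sign was the same under each scaling, but their size ran from -1.16 with the percentile over all miRNAs (adjusted p = 0.19) to -0.11 without scaling for both miRNAs, and to -0.086 under quantile normalization for miR-194. For miR-192 quantile normalization gave -0.58 (adjusted p = 3.6e-06), just under 1.5-fold. The difference between the sexes in this change was 0.19 for miR-192 (adjusted p = 0.81) and 0.17 for miR-194 (adjusted p = 0.85), and 3.5% of all miRNAs passed that test. The sign of this difference turned with the percentile over all miRNAs (-1.22 and -1.25, adjusted p = 0.20 and 0.22), without females 1 and 8 (-0.31 and -0.36, adjusted p = 0.43 and 0.25), and for miR-192 under normexp (-0.049) and quantile normalization, where it passed (-0.37, adjusted p = 0.032).

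The female difference rested on animals 1 and 8. Without both, chosen after their values were seen, it was -0.097 for miR-192 and -0.049 for miR-194 (adjusted p = 1 for each). Without animal 1 alone it was -0.43 for miR-192, and without animal 8 alone -0.40 (adjusted p = 0.23 and 0.21). The call was also lost without any 1 of the 52-week females 1, 5, 8 and 9 (adjusted p = 0.060 to 0.098), and miR-194 was called without 104-week female 2, 5 or 7 (-0.72 to -0.68). Within scans, the 52 to 104 week difference of miR-192 was -1.47, -0.74 and 0.22 in females, where the last scan held neither low animal. Each scan held only 1 or 2 arrays of an age. In males, leaving out 104-week animal 2 alone took the difference from -0.41 to -0.24 for miR-192 and to -0.26 for miR-194.

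The same 3 livers differed in other miRNAs. miR-122 was 655 and 681 in females 1 and 8 against 985 to 1146 in the other 104-week females, and 640 in male 2 against 851 to 919 in the other males. miR-802, another miRNA of the hepatocyte list, was 0.179 and 0.232 in females 1 and 8 against 0.451 to 0.861 in the others. In male 2 miR-802 was 0.489 and not the lowest, with 0.283 in male 3. The leukocyte miRNA miR-142-3p, found in all blood cell lineages, was 13.9 and 22.2 in females 1 and 8 against 6.49 to 7.45 in the others. In male 2 it was 15.5 against 8.11 to 10.2. All 3 were above the highest miR-142-3p of the 69 arrays from 5 to 78 weeks (10.1). The summed leukocyte list (5 of its 6 miRNAs were on the array, and all 5 were detected) was 27.1, 37.2 and 30.5 in female 1, female 8 and male 2. It was 14.8 to 21.7 in the other 6 animals of 104 weeks and 9.25 to 23.7 on the 69 arrays. The erythroid sum (12.1, 6.72 and 9.75) did not stand apart from that of the other 104-week animals (11.1 to 16.1) in a single direction, with female 8 and male 2 below that range. The summed list of intestinal and shared epithelium was highest in the same animals of each sex. It was 1.84 and 2.52 in females 1 and 8 against 0.378 to 1.43 in the other females, and 4.64 in male 2 against 1.84 to 3.24 in the other males. The endothelial sum was 19.6 and 22.6 in females 1 and 8 against 15.5 to 22.2 in the others, and 15.4 in male 2 against 14.1 to 17.4. The stellate and smooth muscle sum was 12.5 and 13.6 in females 1 and 8 against 9.86 to 16.6, and 13.4 in male 2 against 10.5 to 11.7. The part of the miRNAs of other cells in the result was not tested.

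The star strands were low on the arrays of females 1 and 8. In 52-week females miR-192* was 0.244, 0.252, 0.295, 0.349 and 0.359. In 104-week females it was 0.230, 0.250 and 0.263 in animals 2, 5 and 7, was 0.0760 in animal 8, and was not detected in animal 1. The limma difference was -1.47 (SE 0.43, adjusted p = 0.038), with the undetected array at the floor of 0.0120. miR-194* was not detected in females 1 and 8 and was 0.120, 0.135 and 0.152 in the other 3, against 0.0974 to 0.179 at 52 weeks, and its difference of -1.50 did not pass (adjusted p = 0.18). The sign of both differences in females was the same under each scaling tried, but their size was not. With normexp they were -0.11 for miR-192* and -0.097 for miR-194*, and quantile normalization gave -1.24 and -0.75. In males of 104 weeks animal 2 was not the lowest, with a miR-192* of 0.186 against 0.172 in animal 3, and a miR-194* of 0.0745 where animal 3 was undetected.

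From 2 weeks to adult, miR-192* was higher in males by 1.94 (SE 0.51, adjusted p = 0.0011) and in females by 0.997 (SE 0.38, adjusted p = 0.027) on the log2 scale, the latter with the opposite sign without scaling (-0.062). The male value was above 0 under each scaling but was 0.91 with the percentile over the 103 miRNAs, 0.46 without scaling, 0.16 with normexp and 3.30 with the percentile over all miRNAs. In females the percentile over the 103 miRNAs gave 0.34. In males miR-192* was detected in 4 of the 5 animals of 2 weeks and in 23 of the 24 adults, and undetected values sit at the floor. For miR-194* the values were 1.17 (SE 0.70, adjusted p = 0.16) in males and 1.36 (SE 0.66, adjusted p = 0.084) in females, and neither passed. It was undetected on 18 of the 88 arrays, whose values sit at the floor.

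Ratios within an array do not change when the array is divided by a single number, but quantile normalization and normexp do change them. The ratio of 1 miRNA to another on an array is not read as a ratio of abundances, and only its change between ages is compared. Of the 18 comparisons of 3 ratios, 3 age intervals and 2 sexes, 1 passed after Benjamini-Hochberg adjustment over the 18. This was the ratio of miR-192 to miR-122 in females, which was -4.46 ± 0.11 (log2, SD, n = 5) at 2 weeks and -4.12 ± 0.15 (SD, n = 25) in adults. The difference was 0.33 (1.26-fold, exact permutation test, two-sided, p = 3.5e-05, adjusted p = 0.00063), and 22 of 25 adults were above every 2-week female. In males the same ratio was -4.32 ± 0.14 (SD, n = 5) and -4.04 ± 0.21 (SD, n = 24), with a difference of 0.28 (exact permutation p = 0.0094, adjusted p = 0.057). Thus the change of miR-192 exceeded that of miR-122 in females by this test, and the male value missed the threshold. Under quantile normalization it did not exceed it in females, where miR-192 changed by -0.014 and miR-122 by 0. In males these changes were 0.11 and 0. With normexp the female changes were 0.16 for miR-192 and -0.015 for miR-122. The count of 1 ratio comparison that passed rose to 4 without 104-week female 7 and to 3 without 2-week male 3.

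By age the ratio of miR-192 to miR-122 in females was -4.27 at 5 weeks, -4.29 at 6 weeks, -4.06 at 8 weeks, -3.96 at 52 weeks and -4.04 at 78 weeks. In males it was -4.13 at 5 weeks, -4.32 at 6 weeks, -4.08 at 8 weeks, -3.82 at 52 weeks and -4.04 at 78 weeks. The course was thus not steady, and the male mean at 6 weeks equalled that at 2 weeks to 2 decimals. From 52 to 104 weeks it differed by -0.34 in females (exact permutation p = 0.016, adjusted p = 0.071) and by -0.22 in males (exact permutation p = 0.0079, adjusted p = 0.057). In males all 4 animals of 104 weeks were below every male of 52 weeks, animal 2 (-4.17) being the lowest and animal 4 (-3.92) the highest. In females 4 of 5 were below every female of 52 weeks, and animals 1 and 8 had -4.55 and -4.73 against -4.08 to -4.06 in the other 3. Neither passed after adjustment.

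The ratio of miR-194 to miR-122 differed less from 2 weeks to adult. In females the difference was 0.20 (exact permutation p = 0.032, adjusted p = 0.11), and in males it was 0.0083 (exact permutation p = 0.93, adjusted p = 0.97). For miR-192 against miR-194, from 2 weeks to adult the log2 ratio went from 1.77 ± 0.20 to 1.91 ± 0.17 in females (difference 0.13, exact permutation p = 0.13, adjusted p = 0.26, n = 5 and 25). In males it went from 1.69 ± 0.12 to 1.96 ± 0.26 (difference 0.27, exact permutation p = 0.035, adjusted p = 0.11, n = 5 and 24). From 52 to 104 weeks this ratio differed by -0.027 in females and by 0.0020 in males, although both miRNAs were lower on the 3 arrays described. On those arrays it was 1.85 (female 1), 1.96 (female 8) and 2.02 (male 2), within the range of the other animals of 104 weeks (1.80 to 2.20).

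**Figure D4:**
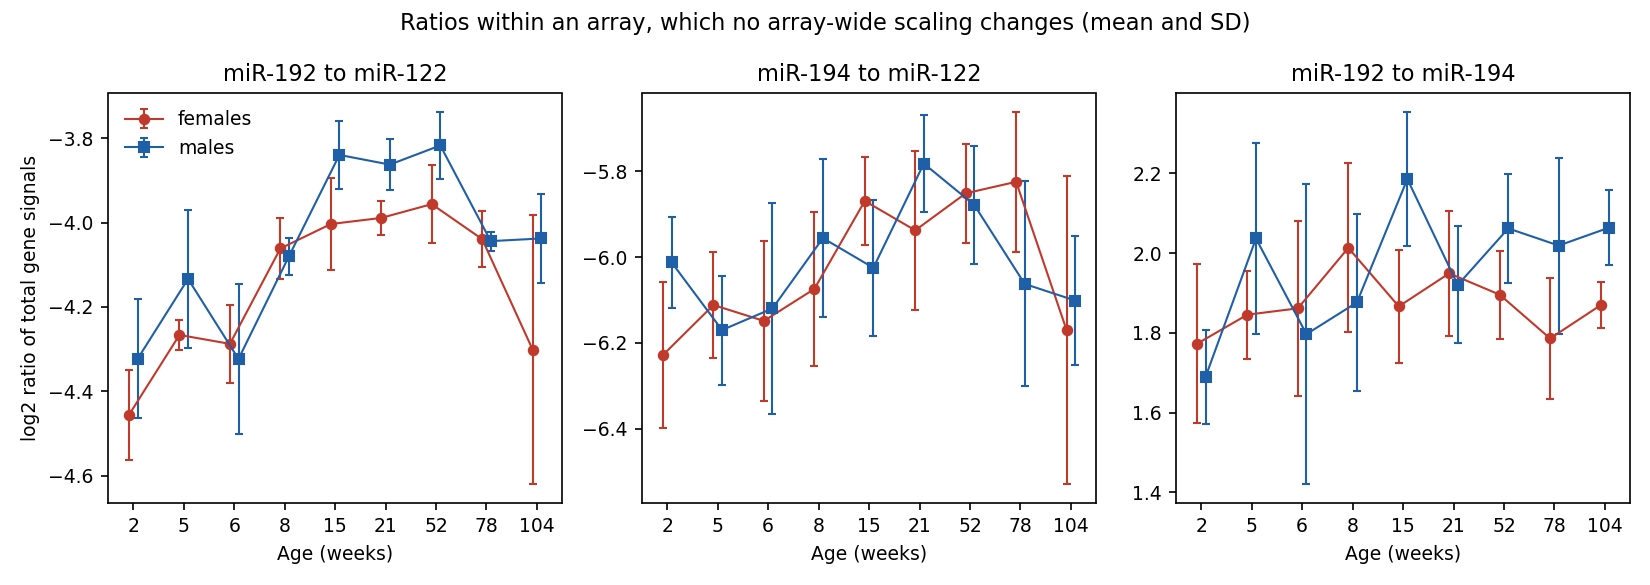
The log2 ratio of the total gene signals of 2 miRNAs on an array, by age in weeks and equally spaced, as mean and SD over 4 or 5 females (red circles) or males (blue squares). miR-192 to miR-122 goes from -4.46 (females) and -4.32 (males) at 2 weeks to -3.96 and -3.82 at 52 weeks, with a low male mean at 6 weeks (-4.32), and is lower again at 104 weeks (-4.30 and -4.04), while miR-192 to miR-194 lies between 1.69 and 2.19 at every age.

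The sexes were set against each other age by age, and neither miRNA was called at any of the 9 ages. Of all miRNAs 18.8% were called at 2 weeks and 0% at 5 weeks. The shares called at 6, 8, 15 and 21 weeks were 0.637%, 5.1%, 9.24% and 6.05%. Those of the old animals were 6.69% (52 weeks), 3.82% (78 weeks) and 4.46% (104 weeks). At 2 weeks miR-192 was lower in males by a log2 difference of -0.50 (SE 0.15, adjusted p = 0.0067), with no overlap of the sexes but under 1.5-fold. For miR-194 the male minus female difference was -0.42 (SE 0.15, adjusted p = 0.022), likewise under 1.5-fold. With the percentile over the 103 miRNAs the differences were -0.11 and -0.025 (adjusted p = 0.62 and 1). Within the 2 scans that held both sexes of 2 weeks, miR-192 differed by -0.50 and -0.66 and miR-194 by -0.28 and -0.40, with 2 females and 1 male in each. With the scaling of the study, miR-122 was also lower in 2-week males, by -0.63 (SE 0.12, limma adjusted p = 6.6e-06), and was called. The log2 ratio to miR-122 was higher in males for miR-192 (-4.32 against -4.46) and for miR-194 (-6.01 against -6.23), a difference that was not tested.

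From 5 to 104 weeks the male minus female difference of miR-192 ran from -0.23 (8 weeks) to 0.24 (15 weeks), and that of miR-194 from -0.30 (78 weeks) to 0.066 (6 weeks). The lowest adjusted p was 0.21, and the 95% confidence intervals reached from -0.60 (miR-194, 78 weeks) to 0.54 (miR-192, 15 weeks). The difference between the sexes in the change from 2 weeks to adult was 0.52 (SE 0.25, adjusted p = 0.12) for miR-192 and 0.39 (SE 0.23, adjusted p = 0.26) for miR-194, and 27.1% of all miRNAs passed this test.

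Array by array, the deviations of the pair correlated with the scaling of the study, largely through the 104-week animals. Over the 88 arrays each array's deviation from its own group mean gave a Pearson r of 0.69 (p = 0.00023) and a Spearman rho of 0.46 (p = 0.00017, 100000 permutations within groups). Without the 2 arrays farthest from the median of miR-192, which were 104-week females 8 and 1, r was 0.55 (permutation p = 0.0025). Without any array of 104 weeks it was 0.25 (permutation p = 0.033, n = 79), so that the value rested largely on that age. Within the scans of 13 to 30 arrays r was 0.63 to 0.92. The 75th percentile that divides both signals is shared by the pair on an array: r was 0.96 with no scaling, 0.47 with the percentile over the 103 miRNAs (permutation p = 0.0083), and 0.17 under quantile normalization (permutation p = 0.32). Of the 101 other miRNAs detected on all arrays, 12 had deviations that correlated with miR-192 at least as highly as miR-194 did, and 5 with miR-194 at least as highly as miR-192 did. The median r with those 101 over all arrays was 0.31 for miR-192 and 0.21 for miR-194. The permutation p sets r against no correlation, not against these medians.

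**Figure D5:**
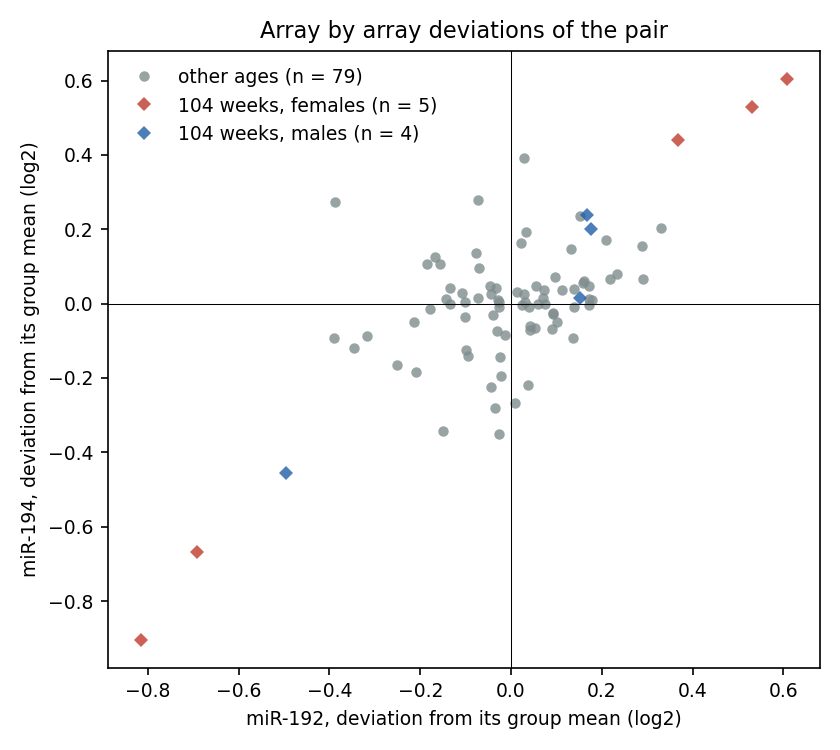
Deviation of miR-194 from its group mean against that of miR-192 (both log2 normalized intensity), 1 point for each of 88 arrays, with 104-week females in red, 104-week males in blue and other ages in grey. The 9 arrays of 104 weeks hold the extremes of both axes, and r falls from 0.69 to 0.25 without them.

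The miRNAs whose group means followed those of the pair most closely were named by Pearson r over the 18 group means, among 101 other miRNAs detected on all arrays. For miR-192 they were miR-193, miR-10a-5p, miR-30e*, miR-30a and miR-26a, with r from 0.971 to 0.964. For miR-194 they were miR-26a, miR-365, miR-122, miR-193 and miR-7a, with r from 0.980 to 0.954. The pair itself had an r of 0.974. Over the 16 groups of 5 weeks and later, the 5 closest to miR-192 were miR-193, miR-30a, miR-30e*, miR-26a and miR-122 (r from 0.949 to 0.907). The 5 closest to miR-194 were miR-26a, miR-122, miR-193, miR-365 and miR-7a (0.956 to 0.918), and the pair had 0.929. These values describe the shared course over groups that also share each array's 75th percentile. Between 52 and 104 weeks in females, miR-193 alone among these had a limma adjusted p under 0.05, with a log2 difference of -0.95 (adjusted p = 0.010). The others ran from -0.70 (miR-365, adjusted p = 0.053) to -0.15 (miR-10a-5p, adjusted p = 0.67), with miR-122 at -0.25 (adjusted p = 0.28).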

How the data were processed

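Liver miRNA was measured on 88 arrays (45 females, 43 males). The authors deposited Feature Extraction output (10.7 in the methods, 10.7.3.1 in the file headers), in which the total gene signal is a background-subtracted linear intensity and 0.1 stands for undetected. They also deposited a normalized table of ratio values, the signal over each array's 75th percentile. Total gene signals were read here from the scanner files, joined by probe name because 17 arrays used a later design version with -5p names. Undetected values were set to 1.84, signals were divided by the value of rank 236 of the 314 expressed miRNAs, undetected values were then set to a floor of 0.0120, and log2 was taken. For both miRNAs 0 values differed from the deposited table by more than 0.01%.

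limma 3.58.1 (R 4.3.3; lmFit and eBayes) was fitted to all 314 miRNAs, by 9 ages and by 3 age classes within a sex, and by 18 groups or 6 groups (sex by class) for the sexes, with Benjamini-Hochberg adjustment. A call needed an adjusted p under 0.05 and at least 1.5-fold, for contrasts between ages also the F test, and for interactions the adjusted p alone. The fit was tested on simulated data. Ratios were compared by exact permutation, or by 100000 permutations where both groups held 10 or more arrays. Mature and hairpin sequences came from RefSeq (GRCr8). Python 3.11.15, numpy 2.4.6, pandas 2.3.3, scipy 1.17.1 and matplotlib 3.10.9 were used.

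The named miRNAs are the pair, their star strands, miR-215, miR-122, miR-122*, and for each of the pair the 5 with the highest r of group means. The members, the marker lists and the tests were chosen with earlier results of these data known. The replicate numbers were checked for pairing: within an age, 17 of 33 male and female animals sharing a number correlated above 0.1, so they were not taken to pair animals. Scan times parted by more than 8 hours gave 5 scans on 13 slides. The authors' 4 processing batches are not given by sample in the sources used here. Alternatives covered scaling, background, floor, filter, batch, pairing, single arrays and the methods' test. The normexp alternative used median spot signals, since the files hold no mean signal.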

Additional observations from a re-analysis of the deposited data

Results flagged for a closer look

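Among 54 sets of 4 or 5 animals (18 groups, for miR-192, miR-194 and their log2 ratio), 5 held an animal far from the rest of its group by Dixon's test at 95%, which chance alone gives in about 1 of 20. In males of 104 weeks the lowest miR-192 was 35.5 (animal 2), as given above with the leukocyte values of that liver. In females of 8 weeks the lowest miR-194 was 12.2 (animal 6), and in females of 21 weeks the highest was 20.1 (animal 2). The log2 ratio of miR-192 to miR-194 was 1.14 in 1 male of 6 weeks (animal 5), where miR-192 was the lowest and miR-194 the highest of its group. It was 1.89 in 1 male of 15 weeks (animal 6).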

How the results depend on the processing

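Scaling had the most effect. As log2 change from 2 weeks to adult, in females and then males, the percentile over the always-detected miRNAs gave miR-192 0.29 and 0.35 and miR-194 0.15 and 0.079, quantile normalization -0.014 and 0.11, and 0.026 and -0.014, normexp 0.16 and 0.24, and 0.13 and 0.18, and no scaling -0.12 and 0.37, and -0.25 and 0.10, none of them called. From adult to old, where nothing was called as reported or under any alternative, the sign turned for miR-192 in females with the always-detected percentile (-0.088), quantile normalization (-0.49) and normexp (-0.18), and in males with the latter 2 (-0.29 and -0.14). It turned for miR-194 in females with the always-detected percentile (-0.031), and in males with the percentile over all miRNAs (-0.042), quantile normalization (-0.024), normexp (-0.11), the scan block (-0.0016), without the other design version (-0.045) and the replicate block (-0.029). From 52 to 104 weeks in females, the call for miR-192 was lost with the always-detected percentile (-0.37), quantile normalization (-0.21), no scaling (-0.70), normexp (-0.34), the raw minimum (-0.60, adjusted p = 0.063) and without females 1 and 8 (-0.097), and the sign turned with the percentile over all miRNAs (0.062, and 0.088 for miR-194). miR-194 was called there with the mean processed signal (-0.61), scan block (-0.64), slide block (-0.61), without the other design version (-0.77) and with the replicate block (-0.75).

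Contrasts called (15 and 14 for miR-192, 11 and 12 for miR-194) were 0, 1, 0 and 0 with the always-detected percentile, 5, 2, 0 and 0 with quantile normalization, 5, 0, 5 and 0 with no scaling, 0 in each with normexp, and 8 and 8 for miR-192 with the percentile over all miRNAs. That scaling also called 1 age between the sexes for each miRNA. The sex difference in the change of miR-194 turned to -0.075 (always-detected) and -0.040 (quantile). That from 52 to 104 weeks turned with the percentile over all miRNAs (-1.22 for miR-192 and -1.25 for miR-194), without females 1 and 8 (-0.31 and -0.36), and for miR-192 with quantile normalization (-0.37) and normexp (-0.049). The r of the deviations was 0.17 with quantile normalization. Of the 18 ratio comparisons, 1 passed as reported and 4 without females 1 and 8.

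Leaving out 1 array at a time moved the change from 2 weeks to adult within 0.91 to 0.98 and 1.43 to 1.52 for miR-192 and within 0.75 to 0.85 and 1.16 to 1.22 for miR-194. Adult to old stayed within 0.050 to 0.17 and 0.060 to 0.15 for miR-192, and within 0.12 to 0.24 and -0.019 to 0.060 for miR-194, where 12 single omissions turned the sign in males. From 52 to 104 weeks the ranges were -0.75 to -0.40 and -0.46 to -0.24 for miR-192 and -0.72 to -0.35 and -0.49 to -0.26 for miR-194. The female call of miR-192 was lost without 104-week animal 1 or 8 and also without 52-week animal 1, 5, 8 or 9 (adjusted p = 0.060 to 0.098). miR-194 was called without 104-week female 2, 5 or 7. The ratio count ranged from 1 to 4, with 4 without 104-week female 7 and 3 without 2-week male 3. Contrasts ranged from 14 to 16 and 12 to 14, and from 9 to 13 and 11 to 13, and ages between the sexes stayed at 0. The sex difference in the change from 2 weeks was 0.48 to 0.58 and 0.34 to 0.44, that from 52 to 104 weeks -0.0094 to 0.36 and -0.060 to 0.32 (below 0 without 104-week female 8 and, for miR-194, female 1), and the change of the log2 ratio of miR-192 to miR-194 was 0.095 to 0.20 and 0.23 to 0.31. The replicate block changed no other call. Under it the ratio of miR-192 to miR-194 changed by 0.13 in females and 0.27 in males. The methods' test changed no call. In all, 298 of 369 results under other settings and 609 of 635 with 1 array left out were classed as the same. For a single result this meant the same direction and call. For a count it meant a value within 1.5-fold of the reported count, and for r within a scan a value above 0. The totals include settings that left the values of both miRNAs as they were, such as the deposited table. Both miRNAs were well above background on every spot, so signal did not limit them.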

Other observations

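miR-215, the seed relative of miR-192 and a miRNA of intestine and kidney, was detected on 1 array, that of 21-week male 3, at a normalized intensity of 3.18. The list of intestinal and shared epithelium holds miR-215 and 5 others. On this array miR-200a (1.68), miR-200c (0.297) and miR-141 (0.886) were the highest of all 88 arrays, whereas miR-200b (1.72) was exceeded on 7 arrays and miR-429 (0.666) on 4. The sum of the list without miR-215, by which the array was picked, was 5.26 against at most 4.64 on any other array. miR-192 was 56.7 and miR-194 16.8 there, the former being the lowest of the 5 males of 21 weeks. With 1 array there is no test, and the source of these signals was not examined. On every other array miR-215 was not detected, whereas miR-192 was well above background on every spot.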
